A study of Mus musculus with 8 samples.

Results

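The genes that lie around Inpp4b on mouse chromosome 8 were examined in livers of HFD WT and HFD Inpp4b-/- males. The members were the genes of the raw count table that GENCODE M21 places wholly within chr8:61342556-102127914 of GRCm38, a window that reaches 20 Mb to each side of Inpp4b (chr8:81342556-82127914). They had to have a mean of at least 10 counts over the 8 libraries. Inpp4b itself, Msmo1 and genes whose symbols start with Ces, Nduf, Cox, Uqcr, Atp5, Rpl, Rps, Mrp, Col, Gst, Ugt, Sult or Cyp were left out. Of the 18095 genes of the table, 357 lay in the window, 52 of them had a mean under 10 counts, 16 were left out by name and 289 were members. Of the members, 150 lay at lower coordinates than Inpp4b and 139 at higher coordinates, and 257 are protein-coding.

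Each group had 4 mice, and all were males aged 12 weeks whose dams received a high-fat diet (HFD) from before mating through lactation and which stayed on that diet. HFD WT mice carried the intact gene, and HFD Inpp4b-/- mice carried a whole-body knockout. The sample labels give the strain as C57BL/6, whereas the study's methods give a knockout received from another laboratory and bred into FVB. The mice of a group carried different animal numbers. The deletion and the DNA inherited with it are shared by all HFD Inpp4b-/- mice, so their parts in a difference near Inpp4b cannot be told apart in this design.

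Inpp4b encodes a phosphatase that removes a phosphate from the inositol ring of phosphoinositide lipids and acts on signalling downstream of phosphoinositide 3-kinase. When a knockout allele made in one mouse strain is bred into another, DNA of the first strain stays attached to the allele on both sides, and each generation of crossing shortens that stretch. Genes in such a stretch can differ between knockout and wild-type mice in sequence as well as in level. The window around Inpp4b holds genes of many roles, among them enzymes of lipid and coenzyme Q synthesis, signalling proteins, chaperones, metallothioneins and clusters of zinc finger genes.

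Promoter sequences of 4 members are shown because these genes belong to pairs of called neighbours described below or, in Zfp868, had the smallest adjusted p among the members. They were taken from RefSeq on GRCm38.p6 and end at the last base before the gene start of GENCODE M21. Zfp868 (chr8:69625549-69625798, minus strand), Lpar2 (chr8:69822315-69822428, plus strand), Pbx4 (chr8:69832374-69832490, plus strand) and Fam32a (chr8:72219495-72219729, plus strand) are written 5′ to 3′ on the strand of the gene. Capitals mark matches to 3 short motifs, read on both strands, namely the TATA box letters TATAAA, the CCAAT box letters (which read ATTGG on the opposite strand), and the GC box letters GGGCGG.
Zfp868: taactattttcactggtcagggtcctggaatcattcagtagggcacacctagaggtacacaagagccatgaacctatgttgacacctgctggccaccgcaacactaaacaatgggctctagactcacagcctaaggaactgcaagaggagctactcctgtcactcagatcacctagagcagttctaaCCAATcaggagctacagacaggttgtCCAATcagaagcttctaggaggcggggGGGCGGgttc
Lpar2: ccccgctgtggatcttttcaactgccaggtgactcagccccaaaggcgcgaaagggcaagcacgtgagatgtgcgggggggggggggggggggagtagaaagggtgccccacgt
Pbx4: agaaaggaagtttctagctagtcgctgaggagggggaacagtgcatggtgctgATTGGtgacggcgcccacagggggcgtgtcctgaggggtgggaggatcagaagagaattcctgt
Fam32a: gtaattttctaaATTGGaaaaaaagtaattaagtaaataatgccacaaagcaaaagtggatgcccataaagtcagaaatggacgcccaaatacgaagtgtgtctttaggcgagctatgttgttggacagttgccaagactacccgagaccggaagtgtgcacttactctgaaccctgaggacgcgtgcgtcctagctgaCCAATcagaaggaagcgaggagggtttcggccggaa

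The printed sequence of Zfp868 held 2 matches to CCAAT and 1 to GGGCGG, that of Fam32a held 2 matches to CCAAT and that of Pbx4 held 1. None of the 3 motifs was in the printed sequence of Lpar2. The full RefSeq windows of Lpar2 and Pbx4 run past the GENCODE start and held 1 match to GGGCGG and 2 to CCAAT. A second RefSeq window of Zfp868 (chr8:69625176-69625425), not printed, held 4 matches to GGGCGG and 0 to CCAAT. RefSeq windows were found for 15 of the 21 called members, 17 windows in all, counted over the full 250 bases before each RefSeq start. TATAAA was in 2 of them, CCAAT in 7 and GGGCGG in 9. Over all 32851 windows of that length, 12.4% held TATAAA, 33.8% CCAAT and 32.7% GGGCGG.

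Total counts ranged from 25893430 to 31427831 per library in HFD WT and from 32738435 to 36662531 in HFD Inpp4b-/-. Inpp4b had 6, 20, 5 and 8 counts in the HFD WT libraries and 33, 10, 9 and 14 in those labelled HFD Inpp4b-/-, so the groups overlapped. Its mean CPM (counts scaled to a common library size, with TMM factors) gave a log2 ratio of 0.49 with an exact two-sided permutation p of 0.486, where the smallest p allowed is 0.0286. The count covers the whole gene, and the deleted part of it is not given in the sources used here, so that every direction below rests on the library labels. The summed level of 5 hepatocyte markers was 72260.1 to 76464.4 CPM in HFD WT and 74748.2 to 93083.6 CPM in HFD Inpp4b-/-. Of 35 markers of liver and other cell types, 28 were tested and none was called by edgeR's quasi-likelihood test. The 4 cholangiocyte markers summed to 20 to 25.7 CPM in HFD WT and 26.7 to 38.5 CPM in HFD Inpp4b-/-, and the part of this in the values below was not tested. In liver as a whole, fewer cells of a type and less RNA per cell cannot be told apart.

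Of the 289 members, 21 were called, 13 higher and 8 lower in HFD Inpp4b-/- than in HFD WT. A gene was called when the edgeR quasi-likelihood test gave an adjusted p under 0.10 and the fold change was over 1.3, over 14866 genes tested. Of all genes tested 1.17% were called, 0.552% higher and 0.619% lower, against 7.27% of the members. All 289 members passed the filter on low counts, although 14 of them had a mean under 10 counts in one of the groups. The members' median log2 fold change was -0.0032, beside 0.0027 over all genes, whereas the median absolute log2 fold change was 0.259 in members and 0.181 over all genes.

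The 4 values of one group lay wholly outside those of the other for 64 members, 35 higher and 29 lower in HFD Inpp4b-/-, which is 22.1% of members against 8.72% of all genes tested (4.63% higher and 4.09% lower). All 21 called members were among them. An unadjusted p under 0.05 was given by 30.4% of members and 13.9% of all genes. Elsewhere on chromosome 8, 3.07% of 521 genes were called and 11.9% did not overlap, and on the other chromosomes 0.962% of 14038 genes were called and 8.31% did not overlap. The rest of chromosome 8 was uneven, since 14 of 255 genes were called between the chromosome's start and the window and 2 of 265 beyond it. Differences between these shares carry no test, because neighbouring genes are not independent of each other. Among the 14 tested genes of the window that were left out by name, Ndufa13 was called higher and Ces1b lower.

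**Figure D1:**
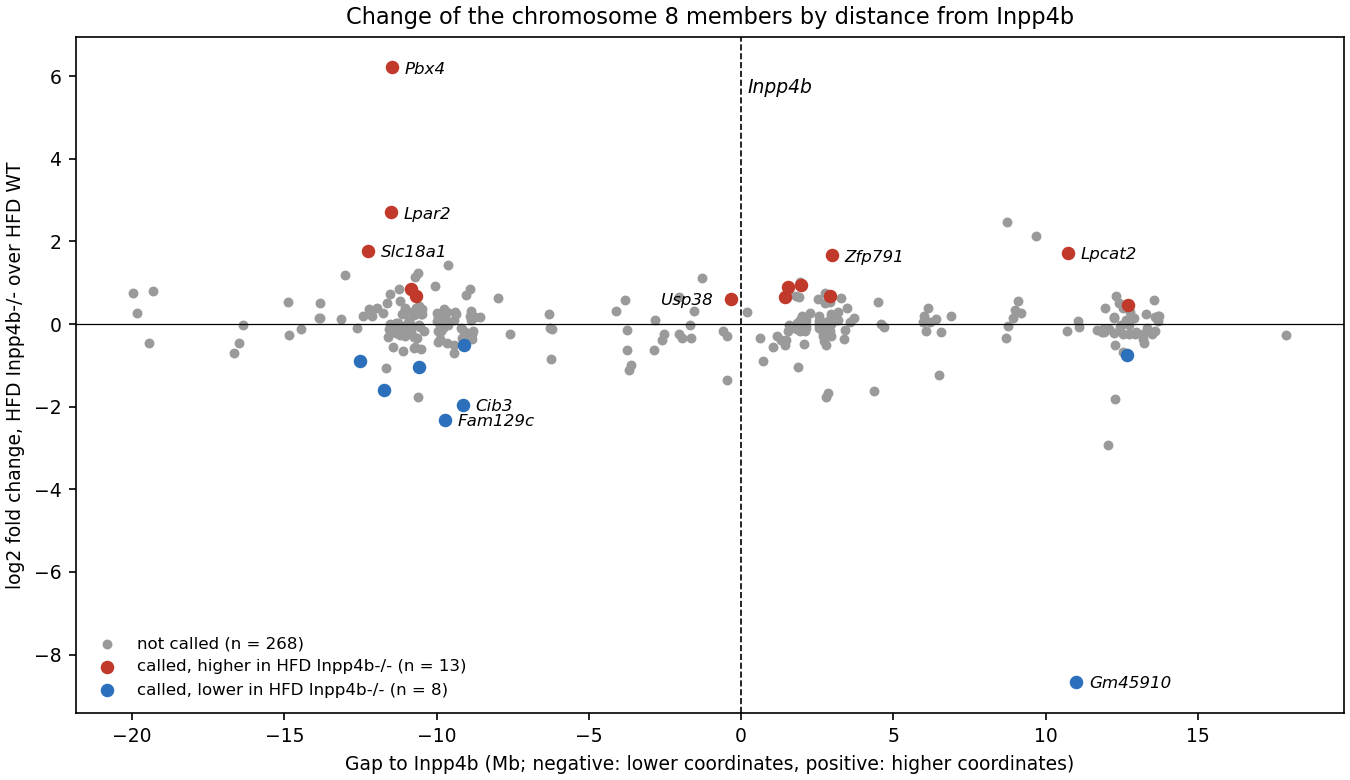
The log2 fold change of each of the 289 members (HFD Inpp4b-/- over HFD WT, vertical axis) is plotted against its gap to Inpp4b in Mb (horizontal axis, lower coordinates negative), with the 13 members called higher in red, the 8 called lower in blue, the other 268 in grey, and some called members named. Calls lie in separate stretches on both sides, from 0.328 to 12.7 Mb away, and the fitted values of Pbx4 and Gm45910 depend on the prior count because one of their groups is at or near 0.

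Calls did not thin out steadily with distance, as the plot of fold change by distance shows. Distance was taken between the nearest edges of a gene and Inpp4b. Within 5 Mb on both sides, 6 of 96 members were called, and all 6 were higher. Within 2 Mb, a cut outside the 5-Mb bins, 4 of 34 were called (11.8%), all higher, and 26.5% did not overlap. Between 5 and 10 Mb, 3 of 67 were called, all lower. Between 10 and 15 Mb, 12 of 118 were called, 7 higher and 5 lower, and between 15 and 20 Mb none of 8 was. The calls beyond 10 Mb include Lpar2, Pbx4, Lpcat2 and Gm45910, which had few or no counts in a group. With 10 counts required in every library, 10 calls lay within 10 Mb and 7 beyond, against 9 and 12, beside 1.09% of all genes. Directions were mixed among all members whose groups did not overlap. Within 5 Mb, 11 were higher and 6 lower, with 5 higher and 8 lower from 5 to 10 Mb. Beside these counts, 1.17% of all genes tested were called and 8.72% did not overlap. The nearest call was Usp38 at 0.328 Mb and the farthest was Coq9 at 12.7 Mb, with 35 members beyond it. The median absolute log2 fold change was 0.34 within 2 Mb, and 0.292, 0.224, 0.25 and 0.461 in the 5-Mb bins from near to far. Across the 289 members, absolute log2 fold change and distance had a Spearman correlation of 0.013, and absolute log2 fold change and mean count one of -0.363. Both are descriptions across genes of the same 8 libraries, and genes are not independent replicates.

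**Figure D2:**
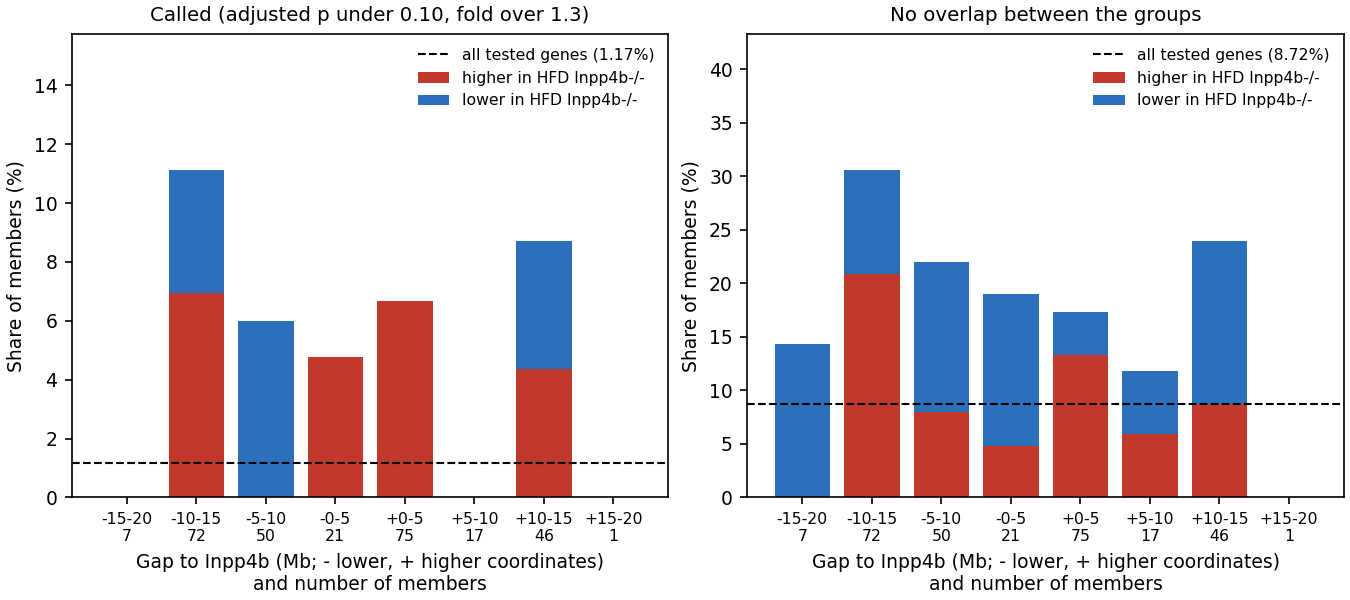
Bars give the share of members in percent, in 5-Mb bins of the gap to Inpp4b (minus for lower and plus for higher coordinates, number of members under each bin), that were called (left) or whose groups did not overlap (right), in red for higher and blue for lower in HFD Inpp4b-/-, with the share over all tested genes as a dashed line (1.17% and 8.72%). Of these bins, that 10 to 15 Mb below Inpp4b has the highest shares, 11.1% called and 30.6% without overlap, and both bins beyond 15 Mb hold few members. Its calls include Lpar2 and Pbx4, which had few or no counts in HFD WT.

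Calls were also counted on each side, beside 1.17% of all genes tested, and differences between the sides were not tested. At lower coordinates 1 of 21 members was called within 5 Mb, 3 of 50 from 5 to 10 Mb, 8 of 72 from 10 to 15 Mb and none of 7 beyond. At higher coordinates the counts were 5 of 75, 0 of 17, 4 of 46 and 0 of 1. Stretches bounded by called genes are given as a description of position, with no test of their density. The stretch from Ints10 to Pde4c, 1.96 Mb long, held 51 members with 5 called higher and 3 lower, and the stretch from Tecr to Zfp791, 1.55 Mb long, held 56 members with 5 called higher and none lower, beside 7.27% of all members called. Between Fam32a and Usp38, in contrast, none of 39 members was called, and between Zfp791 and Lpcat2 none of 31 was. In 4 cases both genes of a pair of consecutive members were called. These were Lpar2 with Pbx4, Cib3 with Fam32a, Lpcat2 with Gm45910 and Ciapin1 with Coq9. Lpcat2 and Gm45910 are 222051 bases apart, and at least Ces1c, left out by name, lies between them. They are therefore neighbours only in the list of members.

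The 3 nearest members on each side were Usp38, Gm31105 and Gab1 at lower coordinates and Il15, Zfp330 and Rnf150 at higher coordinates. Only Usp38 of these 6 was called. Usp38 (chr8:80980733-81014928) encodes an enzyme that removes ubiquitin from proteins. It was measured at 26.4, 22.4, 24.1 and 24.3 CPM in HFD WT and at 34.7, 38.3, 36.7 and 38.7 CPM in HFD Inpp4b-/-. Every HFD Inpp4b-/- library was above every HFD WT library. The difference was a log2 fold change of 0.61 (SE 0.083), with an adjusted p of 0.0138 by edgeR's quasi-likelihood test. Usp38 shares exon bases with Gm9725 on the opposite strand, as do Fbxw9, Lpcat2, Ciapin1 and Coq9 with other genes, and the kit does not mark strand, so these counts are uncertain.

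Il15, which encodes a cytokine that sustains natural killer and memory T cells, lies 0.204 Mb from Inpp4b and was not called. It ranged from 0.922 to 2.02 CPM in HFD WT and from 1.01 to 2.39 CPM in HFD Inpp4b-/-, with a log2 fold change of 0.29 and an edgeR adjusted p of 0.774. Gab1, which encodes an adaptor that links growth factor receptors to phosphoinositide 3-kinase, ranged from 11.1 to 20.1 CPM and from 11.4 to 15.5 CPM, with a log2 fold change of -0.30 and an edgeR adjusted p of 0.527. Both pairs of groups overlapped. Zfp330 had a log2 fold change of -0.33, Rnf150 of -0.90 and Gm31105 of -1.35, and the groups overlapped in each, with edgeR adjusted p of 0.537, 0.394 and 0.26.

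At higher coordinates within 5 Mb of Inpp4b, the stretch from Tecr to Zfp791 held 5 calls, all higher, among 56 members. In the same stretch 9 members were higher and 2 lower without overlap. Over all genes tested, 1.17% were called and 8.72% did not overlap. Tecr (chr8:83571698-83607971) encodes the enzyme that carries out the last reduction of very-long-chain fatty acid elongation. It was at 213.8, 196.9, 202.4 and 203.8 CPM in HFD WT and at 291.4, 277.5, 347.2 and 380.2 CPM in HFD Inpp4b-/-. The groups did not overlap, and HFD Inpp4b-/- replicates 3 and 4 were the highest. The log2 fold change was 0.67 (SE 0.11), with an edgeR adjusted p of 0.0337. Per kilobase of exon its mean level was 93.2 CPM in HFD WT and 147.9 CPM in HFD Inpp4b-/-, the highest among the called members.

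Gipc1 (chr8:83652677-83664694), which encodes a scaffold protein that binds the tails of membrane receptors, was at 9.07, 10.4, 7.78 and 8.1 CPM in HFD WT and at 16.2, 17.6, 16.3 and 15.3 CPM in HFD Inpp4b-/-. The groups were well apart, with a log2 fold change of 0.89 (SE 0.121) and an edgeR adjusted p of 0.0138. Dcaf15 (chr8:84097072-84104768) encodes a substrate receptor of a ubiquitin ligase. It was at 4.13, 5.7, 6.27 and 6.72 CPM in HFD WT and at 11.8, 9.51, 10.6 and 12.1 CPM in HFD Inpp4b-/-. No HFD WT library reached the lowest HFD Inpp4b-/- library, and the log2 fold change was 0.95 (SE 0.171), with an edgeR adjusted p of 0.0508.

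Fbxw9 (chr8:85060055-85067124), an F-box protein gene, was at 11.9, 10.3, 12.2 and 12.2 CPM in HFD WT and at 23.0, 17.2, 17.0 and 18.1 CPM in HFD Inpp4b-/-. Replicate 1 of HFD Inpp4b-/- stood highest, and the groups did not overlap. The log2 fold change was 0.69 (SE 0.126), with an edgeR adjusted p of 0.0532. Zfp791 (chr8:85108553-85123095), a zinc finger gene, was low, at 1.36, 0.787, 0.573 and 0.461 CPM in HFD WT and at 2.61, 2.44, 2.32 and 2.75 CPM in HFD Inpp4b-/-. Overlap was absent, and the log2 fold change was 1.66 (SE 0.347), with an edgeR adjusted p of 0.0805.

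**Figure D3:**
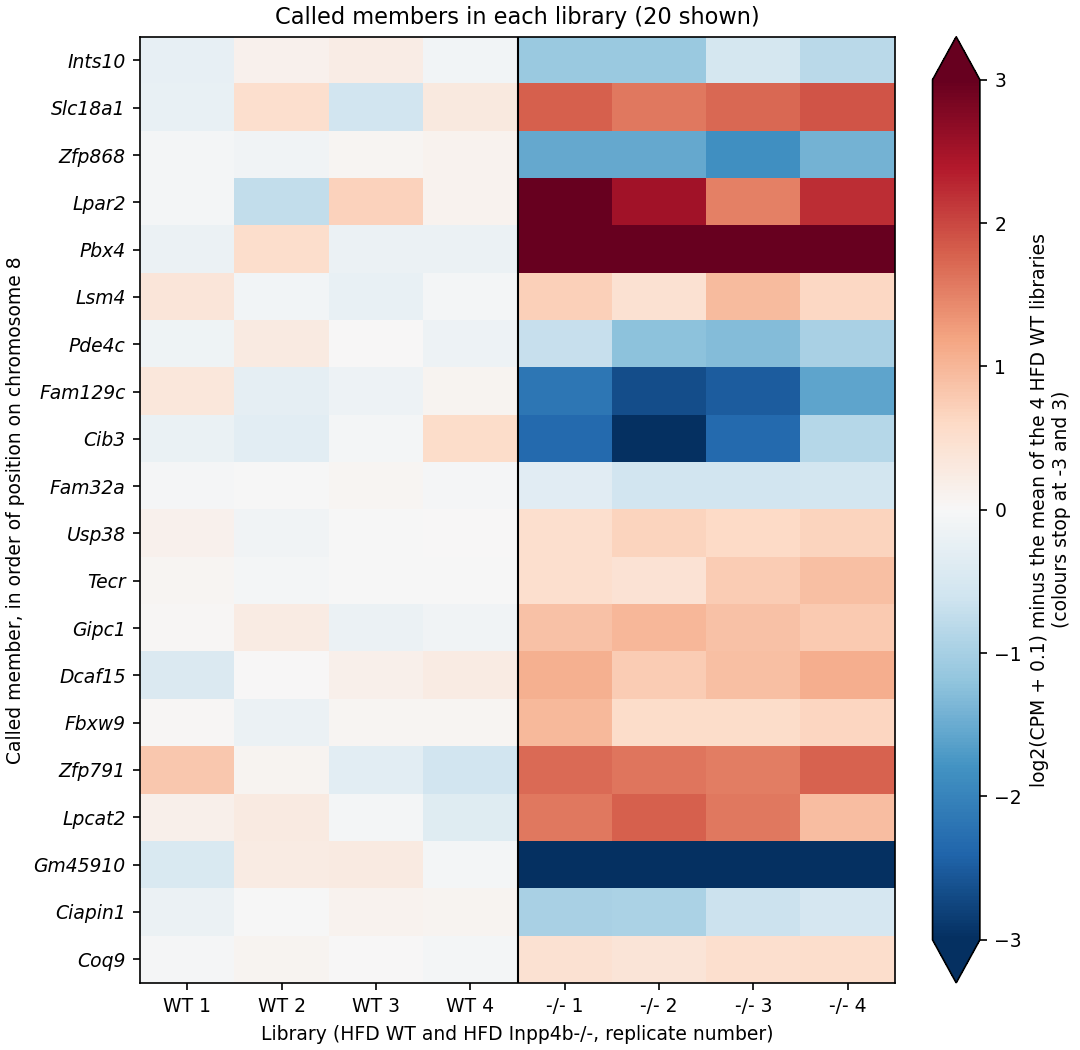
Each row is one of 20 called members in order along the chromosome and each column a library, coloured by log2(CPM + 0.1) minus the mean of the 4 HFD WT libraries, with colours ending at -3 and 3. In the 4 HFD Inpp4b-/- columns 12 rows are red (higher) and 8 blue (lower), and Pbx4 and Gm45910 reach the end of the scale in all 4 of them.

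At lower coordinates, 10 to 13 Mb from Inpp4b, both directions occurred within a short stretch. Zfp868 (chr8:69610857-69625548), a zinc finger gene, had the smallest adjusted p of all members. It was at 16.9, 16.4, 18.4 and 19.0 CPM in HFD WT and at 5.99, 5.99, 4.83 and 6.54 CPM in HFD Inpp4b-/-. The spread within each group was small beside the gap between them, with a log2 fold change of -1.60 (SE 0.126) and an edgeR adjusted p of 0.000843.

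Lpar2 and Pbx4 follow Zfp868 on the opposite strand, next to each other. Lpar2 (chr8:69822429-69831102), which encodes a receptor for lysophosphatidic acid, was at 0.258, 0.126, 0.505 and 0.307 CPM in HFD WT and at 3.22, 2.05, 0.965 and 1.63 CPM in HFD Inpp4b-/-. The HFD Inpp4b-/- libraries differed widely among themselves but all were above HFD WT, with a log2 fold change of 2.71 (SE 0.506) and an edgeR adjusted p of 0.0602. Pbx4 (chr8:69832491-69872292), which encodes a homeodomain transcription factor, was listed at 0 in 3 HFD WT libraries and at 0.063 CPM in replicate 2, and was at 2.25, 0.946, 1.13 and 1.94 CPM in HFD Inpp4b-/-. Over the groups this is 2 counts against 221, a ratio of 89.9 with a 95% counting interval of 24.6 to 747, which covers counting error only. The edgeR adjusted p was 0.0108, and the promoters printed above are those of both genes and of Zfp868.

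Slc18a1 (chr8:69037711-69089235), which encodes a vesicular monoamine transporter, was at 0.959, 1.67, 0.741 and 1.42 CPM in HFD WT and at 4.22, 3.63, 3.99 and 4.52 CPM in HFD Inpp4b-/-. The groups were far apart, with a log2 fold change of 1.77 (SE 0.279) and an edgeR adjusted p of 0.0304. Its gene body shares 590 bases with that of Atp6v1b2 on the other strand, a subunit of the proton pump of lysosomes, although the annotation lists no shared exon. Atp6v1b2 had an edgeR adjusted p of 0.0804 but a log2 fold change of 0.37, below the fold set for a call.

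Lsm4 (chr8:70673248-70678752), a component of the complex that binds U6 RNA in splicing, was at 18.2, 13.3, 12.2 and 13.7 CPM in HFD WT and at 23.3, 19.4, 27.6 and 21.7 CPM in HFD Inpp4b-/-. Replicate 1 of HFD WT came closest to the other group, and the log2 fold change was 0.68 (SE 0.152), with an edgeR adjusted p of 0.0999. This call was lost with DESeq2 size factors in edgeR, with at least 10 counts required in every library and with no filter beyond 1 count.

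Ints10 and Pde4c, at the ends of this stretch, were lower in HFD Inpp4b-/-. Ints10 (chr8:68793929-68831667), a subunit of the Integrator complex that processes small nuclear RNAs, was at 10.8, 14.1, 15 and 12.2 CPM in HFD WT and at 5.91, 5.91, 8.91 and 7.39 CPM in HFD Inpp4b-/-. The groups did not overlap, and the log2 fold change was -0.89 (SE 0.173), with an edgeR adjusted p of 0.0669. Pde4c (chr8:70723720-70751186), a phosphodiesterase that breaks down cyclic AMP, was at 41.6, 54.5, 45.7 and 41.1 CPM in HFD WT and at 28.2, 19.3, 18.5 and 23.1 CPM in HFD Inpp4b-/-. All HFD Inpp4b-/- libraries were below HFD WT, with a log2 fold change of -1.04 (SE 0.15) and an edgeR adjusted p of 0.0184.

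The 3 members called between 5 and 10 Mb from Inpp4b were all lower in HFD Inpp4b-/-. Fam129c (chr8:71597648-71607936) was at 4.76, 3.06, 3.33 and 3.92 CPM in HFD WT and at 0.749, 0.499, 0.579 and 1.18 CPM in HFD Inpp4b-/-. The gap between the groups was wide, with a log2 fold change of -2.32 (SE 0.319) and an edgeR adjusted p of 0.0148. Fam129c shares exon bases with Pgls on the same strand, so its count is uncertain. Cib3 (chr8:72204335-72212837), which encodes a calcium-binding protein, was at 39.9, 37, 44.0 and 67.6 CPM in HFD WT and at 9.02, 5.44, 9.04 and 25.1 CPM in HFD Inpp4b-/-. Replicate 4 was the highest in each group, and the groups did not overlap. The log2 fold change was -1.96 (SE 0.423), with an edgeR adjusted p of 0.0929, and -2.59 without HFD Inpp4b-/- replicate 4.

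Fam32a (chr8:72219730-72224418) starts 6893 bases from the start of Cib3, on the opposite strand. It was at 66.7, 67.7, 71.1 and 65.8 CPM in HFD WT and at 53.6, 45.2, 45.6 and 46.1 CPM in HFD Inpp4b-/-. Overlap was absent, although the difference was smaller than that of its neighbour, with a log2 fold change of -0.51 (SE 0.083) and an edgeR adjusted p of 0.0327. Rab8a, a small GTPase gene of vesicle traffic close by, had an edgeR adjusted p of 0.0831 and a log2 fold change of -0.33, under the fold set for a call.

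At higher coordinates, 10 to 13 Mb from Inpp4b, 2 members were called higher and 2 lower. Lpcat2 (chr8:92855339-92919279), which encodes an enzyme that adds an acyl chain to lysophosphatidylcholine, was at 0.369, 0.409, 0.303 and 0.23 CPM in HFD WT and at 1.17, 1.37, 1.16 and 0.702 CPM in HFD Inpp4b-/-. There was no overlap between the groups at this low level, and the log2 fold change was 1.73 (SE 0.369), with an edgeR adjusted p of 0.0871, a call lost with no filter beyond 1 count. Gm45910 (chr8:93141331-93154116), the next member, was at 1.11, 1.86, 1.89 and 1.5 CPM in HFD WT and was listed at 0 in all 4 HFD Inpp4b-/- libraries. Against a floor of 3 counts per library it was at least 18.5-fold lower, and the edgeR adjusted p was 0.00787. Gm45910 is an unprocessed pseudogene. It lies 10048 bases from Ces1c and 11952 bases from Ces1d, members of a family of carboxylesterase genes with similar sequences, so its count is uncertain. Ces1b, of the same family and left out by name, was also called lower, with a log2 fold change of -1.69 and an edgeR adjusted p of 0.000715.

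Ciapin1 and Coq9 lie head to head, share 38 bases and moved in opposite directions. Ciapin1 (chr8:94819804-94838358), which encodes a factor of cytosolic iron-sulfur protein assembly, was at 47.0, 52.5, 57.5 and 56.7 CPM in HFD WT and at 27.2, 27.7, 34.2 and 37.6 CPM in HFD Inpp4b-/-. Coq9 (chr8:94838321-94854895), which encodes a lipid-binding protein of coenzyme Q synthesis, was at 77.6, 84.7, 80.0 and 76.4 CPM in HFD WT and at 109.7, 103.4, 113.8 and 114.5 CPM in HFD Inpp4b-/-. The groups overlapped in neither gene. The log2 fold change of Ciapin1 was -0.75 (SE 0.124) and that of Coq9 was 0.47 (SE 0.075), with edgeR adjusted p of 0.0337 and 0.0316.

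Of the 21 calls, 8 held in each of the 8 fits that left out 1 library, namely Slc18a1, Zfp868, Pbx4, Pde4c, Fam129c, Usp38, Gipc1 and Gm45910. The call of Ciapin1 was lost without HFD Inpp4b-/- replicate 2, those of Tecr and Coq9 without HFD Inpp4b-/- replicate 3, and that of Fam32a without either of these. Without those libraries the edgeR adjusted p rose to 0.125 for Ciapin1, 0.118 for Tecr, 0.116 for Coq9 and 0.128 for Fam32a. Another 8 calls held in 4 fits or fewer, and all 8 were lost both without HFD Inpp4b-/- replicate 1 and without HFD Inpp4b-/- replicate 2. Over the fits without 1 library their edgeR adjusted p reached 0.195 in Ints10, 0.168 in Lpar2, 0.238 in Lsm4, 0.238 in Cib3, 0.163 in Dcaf15, 0.125 in Fbxw9, 0.217 in Zfp791 and 0.234 in Lpcat2. No called member changed direction in any of these fits. Without HFD Inpp4b-/- replicate 2 the number of members called was 10, beside 0.35% of all genes, and without HFD WT replicate 2 it was 26, beside 2.26%. DESeq2 called 46 members, 28 higher and 18 lower, beside 4.04% of its genes, and all 21 were among them. On simulated counts 26.8% of the DESeq2 calls were false, against 9.3% with edgeR. Those counts were drawn from edgeR's own dispersions, with larger changes than in most called members. The shares may therefore differ in the real data.

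**Figure D4:**
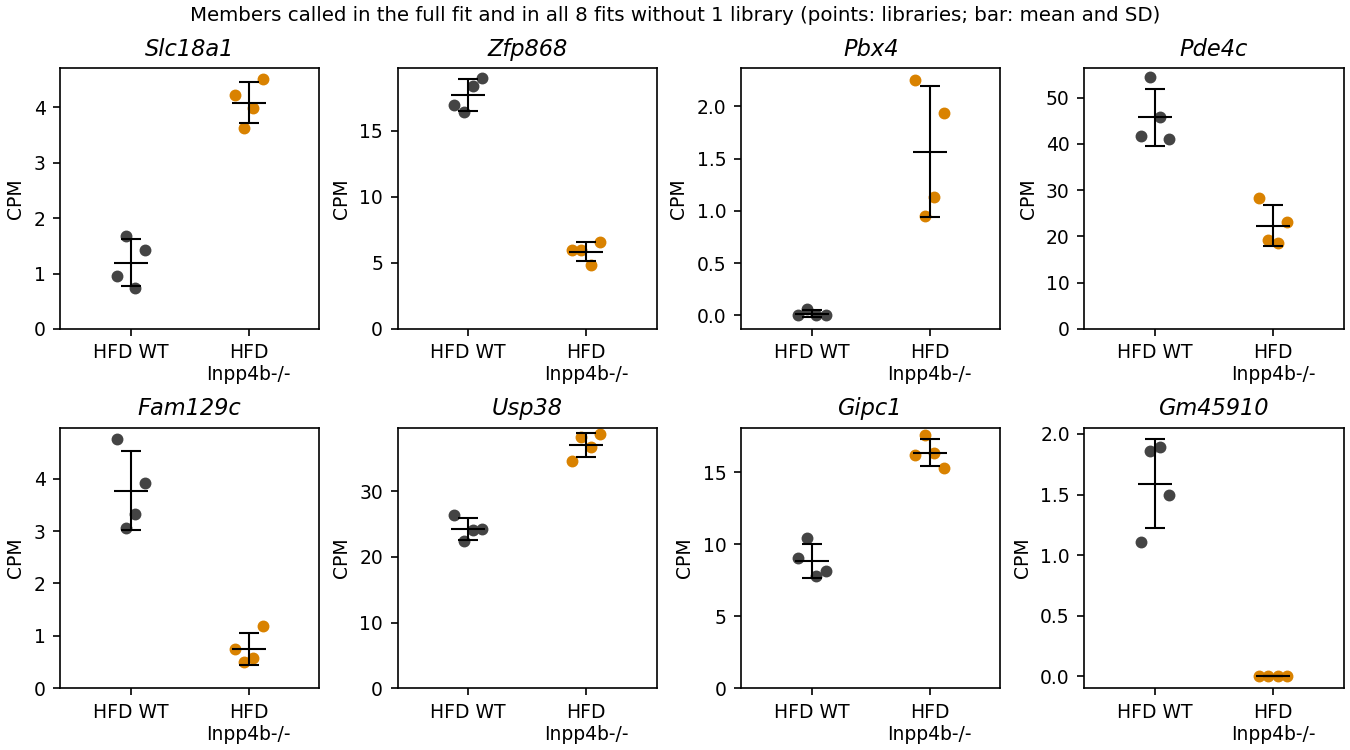
CPM is plotted for the 8 members whose call held in each of the 8 fits without 1 library, with a point for each library and a bar for the mean and SD of each group (n = 4). Slc18a1, Pbx4, Usp38 and Gipc1 are higher in HFD Inpp4b-/- and Zfp868, Pde4c, Fam129c and Gm45910 lower, and the groups overlap in none of the 8.

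Genes of lipid handling held 3 of the 21 calls. Of 7 members on that list, Tecr, Lpar2 and Lpcat2 were called higher and none lower, beside 7.27% of all members and 1.17% of all genes called, and the median log2 fold change was 0.37. The list was drawn up with earlier results of these data known, so this share is not independent evidence. Lpar2 on it is a receptor for a lipid. In HFD WT the mean was only 0.299 CPM in Lpar2 and 0.328 CPM in Lpcat2. Of these calls, that of Lpar2 held in 3 of the 8 fits without 1 library and that of Lpcat2 in 1. Among the 4 not called, Slc27a1, a fatty acid transporter gene, had a log2 fold change of 0.37 and an edgeR adjusted p of 0.42, with overlapping groups. Isyna1, which makes inositol phosphate from glucose phosphate, had a log2 fold change of -0.58 and an edgeR adjusted p of 0.502, and its highest library was HFD WT replicate 4 at 28.6 CPM. Tm6sf2, which acts in the lipid loading of very-low-density lipoprotein, had overlapping groups at 26 to 42.2 CPM in HFD WT and 29.0 to 41.3 CPM in HFD Inpp4b-/-, with a log2 fold change of -0.04.

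Of 9 members among mitochondrial and amino acid enzymes, 1 was called, Coq9, beside 7.27% of all members and 1.17% of all genes. The log2 fold change was positive in 6 and negative in 3, lowest in Gpt2 at -0.36 with an edgeR adjusted p of 0.6. Gcdh, the glutaryl-CoA dehydrogenase of lysine breakdown, was at 441.2, 464.3, 423.0 and 338.9 CPM in HFD WT and at 558.3, 546.2, 664.8 and 606.4 CPM in HFD Inpp4b-/-. Lonp2, the peroxisomal Lon protease, was at 333.2, 323.3, 376.6 and 347.4 CPM in HFD WT and at 572.1, 588.9, 450.1 and 401.0 CPM in HFD Inpp4b-/-. The groups did not overlap in either gene, but neither passed the test, with log2 fold changes of 0.51 and 0.54 and edgeR adjusted p of 0.108 and 0.13. Got2, the mitochondrial aspartate aminotransferase, had overlapping groups and a log2 fold change of 0.19.

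**Figure D5:**
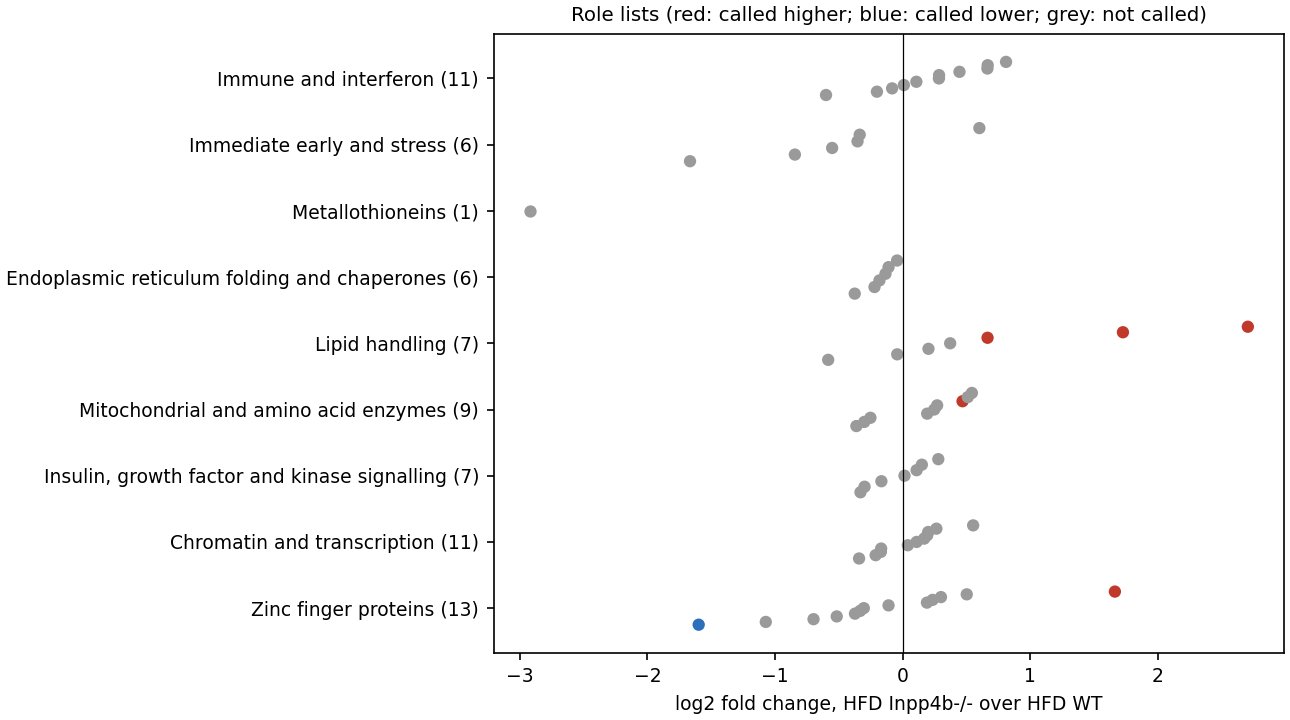
Each row is one of 9 role lists and each point a member of it, placed by its log2 fold change (HFD Inpp4b-/- over HFD WT). Coloured points are calls and occur in 3 of the lists, with 3 in lipid handling, 1 in mitochondrial and amino acid enzymes and 2 in zinc finger proteins.

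Of 13 zinc finger members, Zfp791 was called higher and Zfp868 lower, and 8 of the 13 had a negative log2 fold change. This is set beside 7.27% of all members and 1.17% of all genes called, and the call of Zfp791 held in 1 of the 8 fits without 1 library. Zfp964, close to Zfp868, had a log2 fold change of -1.07 and Zfp882 one of -0.70. Overlap was absent in either, and the edgeR adjusted p was 0.217 and 0.274. None of 11 immune and interferon members was called, beside 7.27% of all members and 1.17% of all genes. Nlrc5, which activates genes of major histocompatibility complex class I, was at 10.3 to 27.0 CPM in HFD WT and 28.2 to 32.6 CPM in HFD Inpp4b-/-, without overlap, and its log2 fold change was 0.67 with an edgeR adjusted p of 0.295.

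In Mt1, Junb and Hmox1, which did not pass the test, the HFD WT libraries spread widely. Mt1, the metallothionein that binds zinc and copper, was at 426.7, 22.6, 7.55 and 117.5 CPM in HFD WT and at 9.71, 8.07, 29.7 and 28.2 CPM in HFD Inpp4b-/-. Its log2 fold change was -2.92 with an edgeR adjusted p of 0.266, and it was the only metallothionein among the members. Without HFD WT replicate 1 its log2 fold change was -1.38. Junb, an immediate early transcription factor gene, was at 56.1, 17.5, 26.6 and 203.5 CPM in HFD WT and at 24, 20.9, 27.7 and 23.1 CPM in HFD Inpp4b-/-. Replicate 4 of HFD WT was far above the rest, and the log2 fold change was -1.67 with an edgeR adjusted p of 0.294, and -0.48 without that library. Hmox1, which encodes the heme-degrading enzyme heme oxygenase, was highest in the same library, at 53.0 CPM, with a log2 fold change of -0.84 and an edgeR adjusted p of 0.427, and -0.19 without it. None of the 6 immediate early and stress members was called, beside 7.27% of all members and 1.17% of all genes. Of the 6, 5 had a negative log2 fold change. Ier2 went the other way, with a log2 fold change of 0.60, no overlap between the groups and an edgeR adjusted p of 0.141.

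None of the 6 members for folding in the endoplasmic reticulum and chaperones was called, beside 7.27% of all members and 1.17% of all genes. All 6 had a negative log2 fold change, from -0.38 to -0.04. Without HFD WT replicate 4 the log2 fold change was 0.118 in Dnajb1, -0.004 in Herpud1 and -0.013 in Calr. Calr, the calcium-binding chaperone calreticulin, had the highest level per length of all members. It was at 914.6, 767.2, 975.0 and 1131.2 CPM in HFD WT and at 910.4, 836.3, 916.0 and 846.4 CPM in HFD Inpp4b-/-, and the groups overlapped. Herpud1 and Dnajb1 had log2 fold changes of -0.22 and -0.38 with overlapping groups, and Dnajb1 was highest in HFD WT replicate 4 at 89.7 CPM.

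None of the 7 members of insulin, growth factor and kinase signalling was called, nor any of 11 of chromatin and transcription. Beside these stand 7.27% of all members and 1.17% of all genes called. On lists this short, the absence of calls is not a result about the role. Smad1, which carries bone morphogenetic protein signals to the nucleus, was at 24.6, 22.5, 23.0 and 24.6 CPM in HFD WT and at 18.4, 19.1, 19.0 and 18.6 CPM in HFD Inpp4b-/-. There was no overlap between the groups, and the log2 fold change was -0.33 with an edgeR adjusted p of 0.128. Rfxank, a subunit of the factor that drives major histocompatibility complex class II genes, had a log2 fold change of 0.55 without overlap and an edgeR adjusted p of 0.173. Prkaca, the catalytic subunit of protein kinase A, was at 55.8 to 66.4 CPM in HFD WT and 61.8 to 65.6 CPM in HFD Inpp4b-/-, with a log2 fold change of 0.01. Nfix and Chd9 had log2 fold changes of 0.20 and -0.34 with overlapping groups.

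The 3 bins without a call were read by the member with the largest absolute fold change. Ddx60, an interferon-induced helicase gene 19.3 Mb below Inpp4b, had a log2 fold change of 0.81 and an edgeR adjusted p of 0.423. Gm45640, 8.75 Mb above Inpp4b, was at 0.369, 0.378, 0.0674 and 0.0768 CPM in HFD WT and at 1.55, 1.5, 0.74 and 1.21 CPM in HFD Inpp4b-/-. The groups did not overlap, and the log2 fold change was 2.46 with an edgeR adjusted p of 0.113. Impdh2-ps, a pseudogene 17.9 Mb above Inpp4b, had a log2 fold change of -0.27 with overlapping groups.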

How the data were processed

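Liver RNA was depleted of ribosomal RNA and made into libraries with a kit that does not mark strand. Per the labels and the study's methods, the authors used HISAT2 for alignment to GRCm38 and HTSeq for counting, and the deposited values are unnormalized counts. The annotation release and strand setting are not given in the sources used here. A second deposited table of normalized values was not used.

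Symbols, positions and exon lengths came from GENCODE M21, which matched all 18095 identifiers. Counts were fitted with edgeR 4.0.16 in R 4.3.3 (TMM, filterByExpr, estimateDisp, glmQLFit and glmQLFTest, genotype only), with Benjamini-Hochberg adjustment over the 14866 genes tested. For a call, the adjusted p had to be under 0.10 and the change over 1.3-fold. Standard errors were taken from the log2 fold change and the F statistic. The steps were tested on counts simulated once from edgeR's dispersions, in which 200 genes above the lowest levels were changed. Of the calls made there, 9.3% were false with edgeR and 26.8% with DESeq2. DESeq2 1.42.0, other scalings, filters and thresholds, a replicate block, and fits without each library were alternatives. Libraries of a group had correlations of 0.958 to 0.981. No label says more of how replicates were housed or processed than that they are separate animals.

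The members and lists were chosen with earlier results of these data known, so no list is independent evidence. Named were all called members except 1, which is counted but not reported by name here, members past the adjusted p but under the fold, the 3 nearest on each side, the largest absolute change in each bin without a call and, for each role list, the 2 largest changes not called and the most abundant member, these last chosen after values were seen.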

Additional observations from a re-analysis of the deposited data

Results flagged for a closer look

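In 4 of 106 groups of 4 libraries examined, 1 library stood apart from the other 3 by Dixon's criterion, where chance alone gives about 1 in 20 groups, or 5.3. Pbx4 was at 0.063 CPM in HFD WT replicate 2 and at 0 in the other HFD WT libraries. Fam32a was at 53.6 CPM in HFD Inpp4b-/- replicate 1 and at 45.2 to 46.1 CPM in the others. Fbxw9 was at 10.3 CPM in HFD WT replicate 2 and at 11.9 to 12.2 CPM in the others. Zfp330 was at 30.2 CPM in HFD WT replicate 4 and at 16.1 to 17.8 CPM in the others.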

How the results depend on the processing

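DESeq2 called 46 members (28 higher, 18 lower; 21 within 10 Mb and 25 beyond), against 4.04% of its genes, and all 21 calls were among them. With a replicate block, 4 were called, 0 higher and 4 lower, 2 within 10 Mb and 2 beyond, beside 0.175% of all genes, namely Ciapin1, Fam129c, Zfp868 and Cib3. Same-numbered libraries correlated at -0.17 to -0.01 in their deviations from group means, and 0 of 8 correlated best with its own number. These correlations gave no sign of pairing by number, but they cannot exclude it. An adjusted p under 0.05 left 13 (7 higher, 5 within 10 Mb, beside 0.478% of all genes), and a fold over 2 left 10 (5 higher, 5 lower, 3 within 10 Mb, 7 beyond, beside 0.558%). Requiring 10 counts in every library gave 10 calls within 10 Mb and 7 beyond, against 9 and 12, beside 1.09% of all genes. The median absolute log2 fold change was then 0.235, and a mean count of at least 50 gave 0.226. Among members sharing no exon with another gene, an alternative chosen after seeing the data, 14 were called, 8 higher and 6 lower.

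Leaving out 1 library gave 10 calls (without HFD Inpp4b-/- replicate 2) to 26 (without HFD WT replicate 2). The range was 6 to 16 members higher, 4 to 10 lower, 3 to 12 within 10 Mb and 6 to 14 beyond, with a median absolute log2 fold change of 0.252 to 0.302 and a median log2 fold change of -0.0219 to 0.0251. Inpp4b gave a log2 ratio of -0.074 to 1.002, negative without HFD Inpp4b-/- replicate 1. Log2 fold changes crossed 0 in Bst2 (-0.062 to 0.149), Dnajb1 (-0.579 to 0.118), Prkaca (-0.036 to 0.037) and Tm6sf2 (-0.156 to 0.063). No called member reversed under any alternative. The causes of these shifts were not tested. The alternative with a pseudocount for members under the filter gave no value, since all members passed it. Members near 1 CPM, such as Lpar2 and Lpcat2, rest on few counts per library.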
